A study of Mus musculus with 27 samples.

Results

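The comparison described here is between liver of mice 48 h after removal of 70% of the liver by partial hepatectomy (PHx48, 7 libraries) and liver of mice after sham operation (sham, 5 libraries, with no time given in the labels). These are 12 of the 27 libraries of the series, and the labels put them in their groups. All mice were wild-type C57/BL6J, and none of the 12 libraries came from a mouse given etomoxir. A further 7 libraries from livers 24 h after the same resection (PHx24) are used below only to place the 48 h values in time. Polyadenylated RNA of whole liver was sequenced, and for each gene the table gives a read count and an FPKM value, that is, a level per length of the gene. Whether every library is a different mouse is not in the labels, so p-values measure spread between libraries, which may be technical.

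After partial hepatectomy the hepatocytes left in place leave quiescence, copy their DNA and divide, and the remaining lobes grow until the mass of the organ is restored. D-type cyclins start this by releasing E2F factors from the retinoblastoma proteins. E2F factors switch on the genes of DNA replication, and complexes of B-MYB and FOXM1 later switch on those of mitosis. The liver keeps working while it grows: hepatocytes make most plasma proteins, bile acids, urea and lipoproteins, and clear drugs and hormones, and other cells of the tissue (endothelial cells, Kupffer cells, stellate cells and bile duct cells) follow in their own time. In bulk tissue a lower level can come from fewer cells of a type or from less RNA per cell, and the 2 cannot be told apart here.

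The 12 libraries held 14903757 to 17192608 counts. They were liver by their markers: Alb, which encodes albumin, took 5.06 to 7.22% of counts in PHx48 and 3.84 to 7.86% in sham, and the summed FPKM of 14 hepatocyte markers was 40250 to 57450 in PHx48 and 46920 to 95530 in sham. Some libraries carried RNA of other tissues. The summed FPKM of 12 skeletal muscle genes was 640.4 in PHx48 3 and 5441 in sham 1, against medians of 0.927 in PHx48 and 3.75 in sham, and that of 12 exocrine pancreas genes was 169.3 in PHx48 3 and 1064 in sham 2, against medians of 9.42 in PHx48 and 25.9 in sham. Sham 2 also had the highest sums of T and NK cell markers (25.4) and B cell markers (41.3). Counts are therefore also given without sham 1, sham 2 and PHx48 3, and without PHx24 1, which had a muscle sum of 2048; these are called the 4 libraries below.

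Genes with at least 1 FPKM in at least 4 libraries were tested (12376 genes), and a gene is called higher or lower when its adjusted p was under 0.05 in the quasi-likelihood test of edgeR (Benjamini-Hochberg over all genes). Of the genes tested, 2410 (19.5%) were called higher in PHx48 than in sham and 2103 (17%) lower. At least 2-fold changes were called for 784 genes (6.33%) upwards and 477 genes (3.85%) downwards. Large changes among the genes tested were mostly rises. At a log2 fold change of at least 4 in size there were 122 higher genes and 17 lower ones. Of the 27 libraries that the filter counts 5 are sham, so genes seen only after resection pass more easily. Without the FPKM filter the changes of at least 2-fold were closer in number, at 1066 higher and 979 lower. All 7 PHx48 libraries lay above all 5 sham libraries for 1434 genes (11.6%) and below them for 1029 (8.31%). The split between higher and lower depends on how libraries are scaled. With library totals in place of TMM factors it was 4278 higher and 986 lower, and with transcript-level shares of each library (TPM, FPKM rescaled to the same sum) it was 5687 higher and 655 lower. The median log2 fold change over all genes was 0.23 and 0.32 under these scalings, against 0.01 with TMM. Without the 4 libraries the counts were 1794 higher and 1711 lower.

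**Figure D1:**
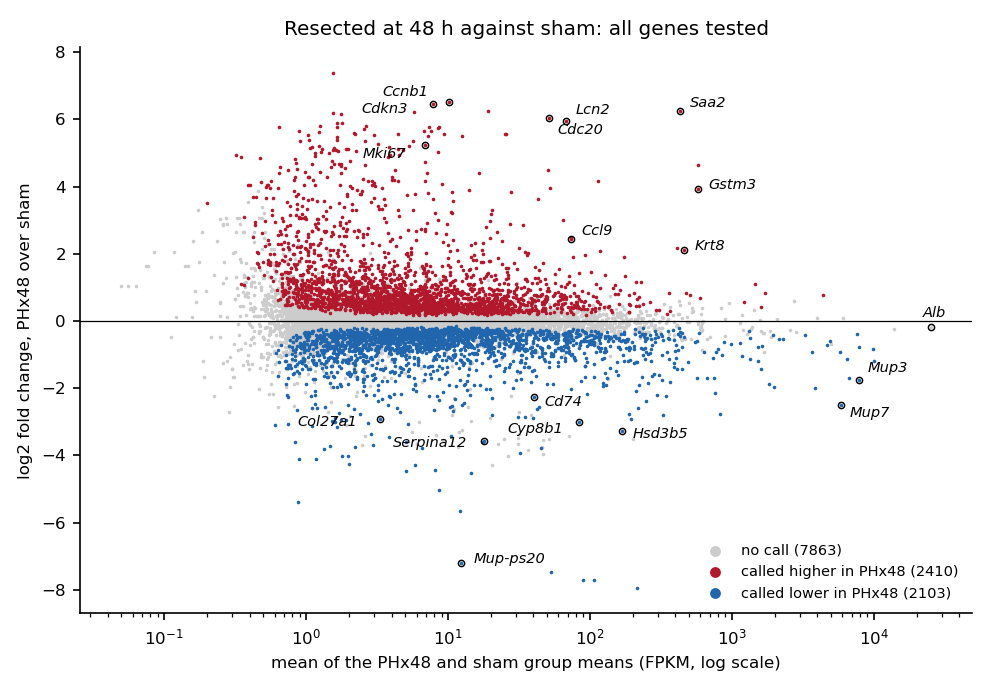
Log2 fold change of PHx48 over sham (vertical axis) against the mean of the PHx48 and sham FPKM (horizontal axis, log scale) for the 12376 genes tested, 1 point per gene. Red points are the 2410 genes called higher in PHx48 and blue points the 2103 called lower; the labelled mitotic and acute-phase genes lie towards the top, and the labelled Mup genes, Cyp8b1 and Hsd3b5 towards the bottom.

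Among called genes with a mean of at least 5 FPKM in the higher group and no overlap between the groups, the 12 largest rises were mostly of genes of mitosis. Of these, 10 belong to the division machinery or its control, and the other 2 were the acute-phase genes Saa2 and Lcn2. Ccnb1, which encodes cyclin B1, the cyclin that takes cells into mitosis (ENSMUSG00000041431, GRCm38 chr13:100778650-100786570), was at 13.4 to 32.5 FPKM (median 16.97) in the PHx48 libraries, against 0.140, 0.131, 0.0978, 0.549 and 0.217 FPKM in the sham libraries. Sham livers held almost none of it, and every PHx48 library was far above every sham library. Its log2 fold change was 6.50 ± 0.77 (SE; edgeR quasi-likelihood test, Benjamini-Hochberg adjusted p = 4.91e-07). Cdkn3, a phosphatase that acts on cyclin-dependent kinases (ENSMUSG00000037628, GRCm38 chr14:46760541-46771669), was at 11.8 to 19.02 FPKM (median 15.9) in PHx48, against 0.249, 0.0582, 0.145, 0.325 and 0.0965 FPKM in sham, also without overlap (log2 fold change 6.44 ± 0.46, edgeR adjusted p = 1.67e-10). The others were Ube2c, the ubiquitin-conjugating enzyme of the anaphase-promoting complex (6.24 ± 0.65), Hmmr, a spindle protein (6.21 ± 0.81), Cdc20, which activates the anaphase-promoting complex (6.05 ± 0.68; it overlaps Elovl1), the MYB factor gene Mybl1 (5.80 ± 0.48), Ckap2, which stabilises spindle microtubules (5.77 ± 0.62), the mitotic kinase gene Pbk (5.76 ± 0.71), Knstrn, a kinetochore adaptor (5.75 ± 0.51), and Cdc25c, the phosphatase that switches on the mitotic kinase (5.70 ± 0.59).

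The 12 largest falls under the same limits were of another kind. Of these, 4 were pseudogenes or predicted genes of the major urinary protein locus or its neighbours (Mup-ps20, Mup-ps12, Mup-ps16 and the overlapping Gm13775), and 3 were predicted genes of unknown role (Gm31583, Gm4956 and Gm23726). Mup-ps20 was listed at 0 in 4 PHx48 libraries and reached 0.610 FPKM in the highest, against 11.999, 11.5, 19.4, 31.7 and 48.2 FPKM in sham. Gm31583 was at 0.217 to 0.733 FPKM (median 0.518) in PHx48, against 11.2, 18.4, 21.5, 15.4 and 17.8 FPKM in sham. The named coding genes were Serpina12, which encodes the secreted serpin vaspin (-3.57 ± 0.38), Hsd3b5, a male-specific hydroxysteroid dehydrogenase gene (-3.29 ± 0.68), Cyp8b1, which makes the precursor of cholic acid (-3.02 ± 0.69), and the collagen gene Col27a1 (-2.93 ± 0.18), with the pseudogene Serpina4-ps1 (-2.93 ± 0.65). The highest point of the plot over all genes is the homeobox gene Obox8, which averaged 3.06 ± 1.11 FPKM in PHx48 and 0.0132 ± 0.0296 FPKM in sham (log2 fold change 7.39 ± 0.79), below the level set for naming. It was looked up after its values were seen. The lowest points include 4 that did not meet the naming rule and were looked up after their values were seen: Mup10, Tff2, S100g and Akp3 had sham levels of 424 ± 593 FPKM, 212 ± 473 FPKM, 176 ± 394 FPKM and 106 ± 237 FPKM (mean ± SD, n = 5), so the spread within sham was larger than its mean, and not all PHx48 libraries lay below all sham libraries.

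Counted in FPKM instead of folds, other genes dominate, since a few liver products make up much of the RNA. The 10 largest gains among called genes were of Hpx (hemopexin, which binds haem), the serum amyloid genes Saa1 and Saa2, the glutathione transferase genes Gstm1 and Gstm3, Orm1 (orosomucoid), the keratin genes Krt8 and Krt18, complement C3 and the ferritin light chain gene Ftl1. The 10 largest losses among called genes were of Mup3, Mup7, Mup12 and Mup20, the apolipoprotein genes Apoa1, Apoa2 and Apoe, the serpin genes Serpina1e and Serpina3k, and Fabp1, whose protein carries fatty acids inside hepatocytes. Mup3 alone averaged 3535 ± 954 FPKM in PHx48 and 12170 ± 3526 FPKM in sham (SD, n = 7 and 5). Hpx averaged 5451 ± 951 FPKM in PHx48 and 3270 ± 739 FPKM in sham, and its call (log2 fold change 0.76 ± 0.24) was lost without the 4 libraries, as were those of C3 and Ftl1.

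The cell cycle genes were followed from entry to exit. Among 18 G1 cyclins, their kinases and retinoblastoma proteins, 12 were called higher and 2 lower, with a median log2 fold change of 1.06 against 0.01 over all genes. Ccnd1, which encodes cyclin D1 (ENSMUSG00000070348, GRCm38 chr7:144929931-144939925; it overlaps Oraov1), was at 16.5 to 46.9 FPKM (median 29.8) in PHx48, against 2.37, 2.18, 8.29, 6.03 and 4.91 FPKM in sham. Every PHx48 library was above every sham library, although PHx48 libraries differed among themselves by more than 2-fold. The log2 fold change was 2.80 ± 0.34 (edgeR adjusted p = 6.62e-07). Ccne1, cyclin E1, which drives entry into DNA synthesis, rose by 2.96 ± 0.34, and Ccna2, cyclin A2, which acts in DNA synthesis and in the approach to mitosis, by 4.75 ± 0.55 (it overlaps Exosc9). Cks2, a small subunit of cyclin-dependent kinase complexes, rose by 1.52 ± 0.13 (it overlaps Gm22806). The called falls were of the retinoblastoma-family genes Rbl2 (-0.75 ± 0.11, every PHx48 library below every sham library) and Rb1 (-0.37 ± 0.13), which hold cells in quiescence; both overlap other genes, and the call of Rb1 was lost under 8 alternatives.

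Most genes of cell cycle transcription factors were higher too, and their part in the rises above was not tested. Of 15 E2F, MYB and FOXM1 genes 11 were called higher and none lower. Foxm1, the forkhead factor of mitotic genes (ENSMUSG00000001517, GRCm38 chr6:128362967-128376146), was at 5.56 to 7.99 FPKM (median 6.16) in PHx48, against 0.185, 0.108, 0.107, 0.375 and 0.0530 FPKM in sham. The lowest PHx48 library was more than 10 times the highest sham library. Its log2 fold change was 5.25 ± 0.63, with E2f2, an E2F activator, at 2.72 ± 0.36, Tfdp1, the partner of E2F proteins, at 0.86 ± 0.13, and E2f4, a factor of the repressive complexes of quiescent cells, at 0.46 ± 0.11. Myc, the immediate growth factor-responsive gene, was at 1.66 to 10.98 FPKM (median 4.25) in PHx48 and 1.46, 1.42, 4.78, 5.51 and 0.617 FPKM in sham, with much overlap and no call (0.87 ± 0.49, edgeR adjusted p = 0.175).

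In DNA replication, 17 of 22 licensing and helicase genes were called higher and 1 lower (median 2.28), and 34 of 36 genes of synthesis and repair at the fork higher and none lower (median 1.66). Mcm5, a subunit of the helicase that opens DNA (ENSMUSG00000005410, GRCm38 chr8:75109569-75128439), was at 10.02 to 15.6 FPKM (median 14.4) in PHx48, against 1.07, 0.864, 1.38, 0.927 and 0.592 FPKM in sham. All PHx48 libraries stood well clear of sham (log2 fold change 3.82 ± 0.48, edgeR adjusted p = 9.86e-07). Pcna, the sliding clamp of DNA polymerase, had a higher level in sham and a smaller rise, with 23.4 to 38.7 FPKM (median 31.1) in PHx48, against 9.58, 11.9, 8.90, 14.9 and 14.9 FPKM in sham (1.38 ± 0.32), again without overlap. Rises were also called for Dbf4, which activates the origin kinase (2.76 ± 0.24), Mcm2 (2.78 ± 0.36), Gins2 of the helicase complex (3.39 ± 0.40; it overlaps Gse1), Chaf1a, which loads histones behind the fork (3.43 ± 0.41; it overlaps Ubxn6), and Dnmt1, which copies DNA methylation (1.49 ± 0.19). Mcm10, an initiation factor, went the other way: it averaged 3.99 ± 1.21 FPKM in PHx48 and 13.4 ± 4.49 FPKM in sham, every PHx48 library being below every sham library (-1.73 ± 0.46, edgeR adjusted p = 0.00432).

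Genes that supply nucleotides and histones followed. Of 27 genes of nucleotide and one-carbon synthesis 17 were called higher and none lower (12 without the 4 libraries). Rrm2, the regulated subunit of ribonucleotide reductase, averaged 26.5 ± 6.17 FPKM in PHx48 and 1.82 ± 0.921 FPKM in sham (3.90 ± 0.55), and Tyms, thymidylate synthase, 5.66 ± 1.11 FPKM in PHx48 and 1.38 ± 0.301 FPKM in sham (2.05 ± 0.30). Of 19 histone and histone chaperone genes 16 were called higher and none lower, or 11 without the 4 libraries; most replication-dependent histone messages lack a poly(A) tail and are poorly seen in polyadenylated RNA. H2afz, which encodes the replacement histone H2A.Z, was at 125 to 168 FPKM (median 147) in PHx48, against 31.9, 35.6, 32.6, 46.8 and 42.8 FPKM in sham, with no overlap (1.96 ± 0.23, edgeR adjusted p = 3.33e-07). H2afx, the histone marked at DNA breaks, rose by 2.17 ± 0.18, the nucleosome-binding protein gene Hmgn2 by 2.10 ± 0.22, and the nuclear lamina genes Lmnb1 and Lmnb2 by 2.67 ± 0.29 and 1.08 ± 0.12.

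The mitotic genes were the most uniform group. Called higher were 26 of 26 mitotic kinases, cyclins and phosphatases (median log2 fold change 4.43), 24 of 24 kinetochore and centromere genes (3.97), 28 of 28 spindle motor and microtubule genes (4.28), 19 of 20 genes of chromosome structure (3.73) and 18 of 19 of mitotic exit and cytokinesis (4.77). These counts were the same without the 4 libraries except for chromosome structure, with 17. Only members that passed the filter of 1 FPKM in at least 4 libraries are counted. The full lists held 26 kinetochore, 31 spindle and 21 mitotic exit genes. Genes near absent from sham, such as Ccnb1, passed the filter through resected livers and could hardly be called lower, which favours high shares. Cdk1, the kinase partner of cyclin B (ENSMUSG00000019942, GRCm38 chr10:69335146-69352938), was at 10.6 to 22.8 FPKM (median 13.4) in PHx48, against 0.335, 0.377, 0.390, 1.08 and 0.386 FPKM in sham. The PHx48 libraries formed a lower set of 4 (10.6 to 13.4 FPKM) and a higher set of 3 (21.8 to 22.8 FPKM: PHx48 5, 6 and 7), and both were above sham. Its log2 fold change was 5.03 ± 0.62 (edgeR adjusted p = 7.58e-07). Mki67, whose protein coats mitotic chromosomes and marks cycling cells, was at 8.96 to 19.8 FPKM (median 13.3) in PHx48, against 0.388, 0.267, 0.369, 0.529 and 0.258 FPKM in sham (5.23 ± 0.69).

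Within these groups, the regulators included Ccnb2, cyclin B2 (5.55 ± 0.55), Plk1, the polo kinase (5.52 ± 0.65), Cdca8, the borealin subunit of the Aurora B complex (4.29 ± 0.39; it overlaps 9930104L06Rik), and Pkmyt1, which holds the mitotic kinase inactive (3.35 ± 0.31; it overlaps Paqr4). At the kinetochore, Cenpa, the centromeric histone, averaged 14.6 ± 3.77 FPKM in PHx48 and 1.59 ± 0.242 FPKM in sham (3.21 ± 0.27), the motor gene Cenpe rose by 5.39 ± 0.54, and the constitutive centromere genes Cenpw and Cenpm by 2.72 ± 0.22 and 3.84 ± 0.38. The tubulin genes had high sham levels and small errors: Tubb6 averaged 79.4 ± 7.78 FPKM in PHx48 and 6.51 ± 0.523 FPKM in sham (3.63 ± 0.27), Tuba1b 124 ± 15.3 FPKM in PHx48 and 22.8 ± 1.82 FPKM in sham (2.45 ± 0.17) and Tubb4b 274 ± 54.1 FPKM in PHx48 and 74.5 ± 8.70 FPKM in sham (1.90 ± 0.14), each with every PHx48 library above every sham library. For chromosome structure, Cdca3, which helps degrade the mitosis inhibitor WEE1, rose by 5.57 ± 0.60, the condensin genes Ncapd2 and Ncaph2 by 3.13 ± 0.34 and 0.99 ± 0.093 (Ncaph2 overlaps Tymp), and Espl1, separase, which cuts cohesin, by 4.997 ± 0.56. Pttg1, securin, the inhibitor of separase, was the 1 mitotic gene called lower (-0.41 ± 0.14, edgeR adjusted p = 0.0245); the call was lost with library totals, TPM, no FPKM filter, without PHx48 1 and without the 4 libraries. At mitotic exit, Ect2 and Arhgap11a, which control the contractile ring, rose by 5.34 ± 0.54 and 4.49 ± 0.36.

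**Figure D2:**
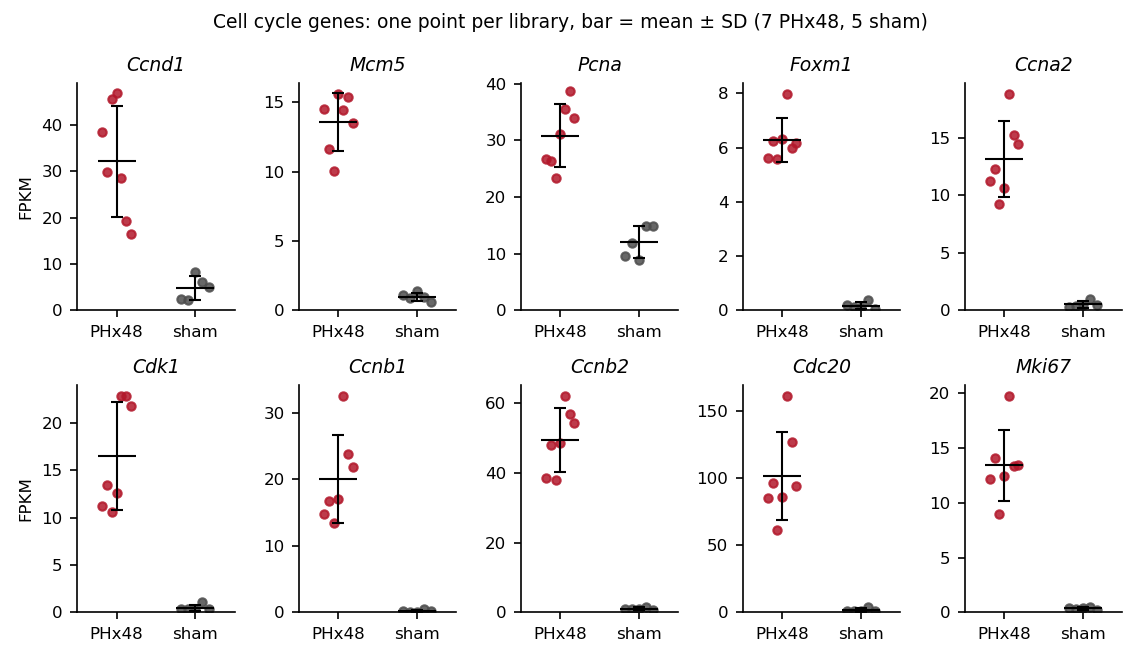
FPKM of 10 cell cycle genes, 1 point per library, in the 7 PHx48 libraries (red, left) and the 5 sham libraries (grey, right); bars are mean ± SD. The PHx48 points lie above every sham point in each panel, and the spread among PHx48 libraries is widest relative to the mean for Ccnd1.

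The start regions of 5 of these genes are printed because members that rose together carry short sequences known to bind the cell cycle factors. The windows run from 250 bases before to 50 after the start site (RefSeq, build GRCm38.p6), 5′ to 3′ on the gene's strand, with motifs in capitals. In the first 3, from mitotic genes, the capitals mark CCAAT, the letters bound by NF-Y, and TTTGAA, the cell cycle homology region bound by the DREAM and MYB complexes, on either strand (ATTGG is CCAAT read from the other strand). In the other 2, from helicase genes, they mark TTTNNCGC, a form of the E2F site, on either strand, where matches on the 2 strands overlap and run together.
Ccnb2, chr9:70421505-70421804, minus strand: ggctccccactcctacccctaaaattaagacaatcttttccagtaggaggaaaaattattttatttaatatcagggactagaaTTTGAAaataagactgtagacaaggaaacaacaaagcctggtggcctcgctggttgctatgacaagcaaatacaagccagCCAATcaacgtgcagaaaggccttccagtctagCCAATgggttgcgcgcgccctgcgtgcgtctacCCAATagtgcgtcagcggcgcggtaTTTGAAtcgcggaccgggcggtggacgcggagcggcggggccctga
Cdk1, chr10:69352863-69353162, minus strand: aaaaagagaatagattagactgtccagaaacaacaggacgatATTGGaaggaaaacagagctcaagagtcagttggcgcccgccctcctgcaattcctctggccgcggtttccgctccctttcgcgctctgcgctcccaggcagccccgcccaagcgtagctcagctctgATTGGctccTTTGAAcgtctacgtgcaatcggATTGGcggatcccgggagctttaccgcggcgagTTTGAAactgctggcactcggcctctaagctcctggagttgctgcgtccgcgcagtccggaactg
Plk1, chr7:122159185-122159484, plus strand: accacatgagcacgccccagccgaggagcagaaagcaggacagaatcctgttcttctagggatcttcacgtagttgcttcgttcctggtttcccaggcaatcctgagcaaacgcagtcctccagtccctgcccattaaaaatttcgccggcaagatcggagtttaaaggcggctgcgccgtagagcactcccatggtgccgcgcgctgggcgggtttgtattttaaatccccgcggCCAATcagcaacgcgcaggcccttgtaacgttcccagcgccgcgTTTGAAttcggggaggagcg
Mcm5, chr8:75109259-75109558, plus strand: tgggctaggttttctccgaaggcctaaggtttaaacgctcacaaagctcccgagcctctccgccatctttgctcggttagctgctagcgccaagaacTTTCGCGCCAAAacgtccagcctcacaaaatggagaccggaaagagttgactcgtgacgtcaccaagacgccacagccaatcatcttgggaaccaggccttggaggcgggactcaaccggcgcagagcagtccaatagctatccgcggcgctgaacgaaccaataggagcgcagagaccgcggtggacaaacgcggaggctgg
Mcm6, chr1:128359656-128359955, minus strand: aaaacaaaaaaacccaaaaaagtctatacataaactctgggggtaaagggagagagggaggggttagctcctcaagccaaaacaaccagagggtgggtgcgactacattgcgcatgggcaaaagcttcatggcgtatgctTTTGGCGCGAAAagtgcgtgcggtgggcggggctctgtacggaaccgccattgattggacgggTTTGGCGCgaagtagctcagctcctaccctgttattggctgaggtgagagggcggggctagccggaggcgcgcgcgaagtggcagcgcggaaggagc

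Windows were found for 95 of the 116 genes of the 5 mitotic lists, 48 of the 58 genes of the 2 replication lists and 8722 of the 12376 genes tested. The shares below are of these genes. A gene was counted where any of its windows held the motif, so genes with several windows had more chances. TTTGAA was present in 62.1% of the mitotic genes, 16.7% of the replication genes and 14.5% of all genes tested. CCAAT was in 69.5% of the mitotic genes and 60.4% of the replication genes, against 43.3% of all, and both CCAAT and TTTGAA in 49.5%, 10.4% and 6.03%. TTTNNCGC was in 39.6% of the replication genes, 16.8% of the mitotic ones and 9.84% of all. These shares describe letters in a window and not binding.

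Of 22 CDK inhibitor and p53 target genes, 10 were called higher and 1 lower. Cdkn1a, the inhibitor p21, was at 21.2 to 35.7 FPKM (median 23.8) in PHx48, against 5.87, 7.90, 3.35, 4.93 and 3.93 FPKM in sham, with no overlap (2.31 ± 0.32, edgeR adjusted p = 3.87e-06). Mdm2, which degrades p53, rose by 0.72 ± 0.092, the p53-induced nuclease gene Aen by 1.27 ± 0.16, and Gtse1, a mitotic microtubule protein that restrains p53, by 4.20 ± 0.47. The stress sensor gene Sesn1 was called lower (-0.49 ± 0.17), a call lost under 6 alternatives.

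Growth machinery showed smaller and less uniform changes than the cell cycle. Splicing factors had the largest share called higher among these lists: 25 of 34 were called higher and none lower (19 without the 4 libraries), with a median of 0.47. Hnrnpa2b1, which encodes an RNA-binding protein of nuclear messages, was at 95.3 to 114 FPKM (median 99.4) in PHx48, against 65.2, 66.5, 66.04, 63.1 and 67.9 FPKM in sham. The groups did not overlap and the spread within each was small (log2 fold change 0.64 ± 0.083, edgeR adjusted p = 1.44e-06). Hnrnpa1 rose by 1.25 ± 0.14, Srsf3, a splicing factor rich in serine and arginine, by 0.85 ± 0.11, and Snrpa1, of the U2 particle, by 1.005 ± 0.12. Of 20 aminoacyl-tRNA synthetase genes 6 were called higher and 1 lower, or 4 and 2 without the 4 libraries, 16 and none by library totals and 17 and none by TPM. Vars, the valyl enzyme, stood out with 23.5 ± 2.02 FPKM in PHx48 and 8.03 ± 0.675 FPKM in sham (1.57 ± 0.10), while Hars, the histidyl enzyme, rose by only 0.51 ± 0.077 (it overlaps Hars2).

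Ribosome biogenesis genes were called higher in 15 of 32 cases and lower in none (median 0.29), or 8 without the 4 libraries. Bysl, needed to make the small subunit, rose by 0.68 ± 0.10 (it overlaps Ccnd3), and Rrs1 and Utp20 by 0.49 ± 0.10 and 0.51 ± 0.11. Cytosolic ribosomal protein genes were called higher in 10 of 49 cases, a share near the 19.5% over all genes, and in 2, with 1 lower, without the 4 libraries. Genes of the endoplasmic reticulum and secretory pathway were called higher in 10 of 30 cases and lower in 1 (4 and 3 without the 4 libraries). Many more members passed when scaling by library totals, with 26 ribosome biogenesis, 42 ribosomal protein and 22 secretory pathway genes called higher. The translocon genes Ssr1, Ssr2, Ssr3 and Sec61a1 rose by 0.87 ± 0.10, 0.70 ± 0.14, 0.72 ± 0.14 and 0.88 ± 0.16 (Ssr2 overlaps Gm10704), and Herpud1, a stress-induced factor of protein disposal, fell (51.3 ± 13.4 FPKM in PHx48 and 133 ± 59.6 FPKM in sham, -1.35 ± 0.23). Among 32 proteasome genes 7 were called higher, again near the share over all genes, and 3 lower. These counts were 2 and 3 without the 4 libraries, 19 and none by library totals and 25 and none by TPM. Among 22 heat shock genes 7 were called higher and 1 lower, or 2 and 1 without the 4 libraries, 14 and none by library totals and 18 and none by TPM. Hsp90aa1, the inducible chaperone, rose by 1.08 ± 0.19.

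Among the lists of hepatocyte functions, the lowest median was that of growth hormone and STAT5 targets, genes that the pulsed male pattern of growth hormone keeps high. None of 37 was called higher and 30 were called lower, with a median of -1.69. Among these are the major urinary proteins, pheromone carriers that male mice secrete in bulk. Of 29 Mup genes and pseudogenes tested, 27 were called lower and none higher (median -2.56); their copies are nearly identical and can take each other's reads, so single values are uncertain and the sum is given. The summed FPKM of the 20 coding copies was 5145 to 14058 in PHx48 with a median of 8768, against 28041, 36949, 41596, 42329 and 44513 in the sham libraries. The lowest sham library, sham 1, which carried muscle RNA, still held about 2 times the highest PHx48 sum. Hsd3b5 was at 10.5 to 64.2 FPKM (median 29.5) in PHx48, against 226, 280.1, 302, 310.4 and 405 FPKM in sham, without overlap (edgeR adjusted p = 0.000421). Serpina12 averaged 2.75 ± 1.22 FPKM in PHx48 and 33.2 ± 11.7 FPKM in sham. Igf1, the growth hormone-driven hormone of the liver, fell much less (47.5 ± 6.59 FPKM in PHx48 and 67.7 ± 16.9 FPKM in sham, -0.49 ± 0.13), a call lost with library totals and TPM. Igfbp1, a binding protein of IGF1, was at 12.4 to 85.8 FPKM (median 39.3) in PHx48 and 148, 115, 24.8, 5.77 and 10.6 FPKM in sham, with overlap and with sham 1 and sham 2 far above the other sham libraries. It gave no call, and its log2 fold change of -0.44 ± 0.66 turned positive without sham 1.

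Female-biased liver genes, which the steadier female pattern of growth hormone keeps high, were more often higher among those tested. Of 25 listed genes 15 were tested, and 7 were called higher and 2 lower (median 0.88), or 5 and 2 without the 4 libraries. Cyp2a4, a steroid hydroxylase gene, averaged 5.49 ± 3.50 FPKM in PHx48 and 0.306 ± 0.343 FPKM in sham, every PHx48 library being above every sham library (4.17 ± 0.91), and Acot3, a peroxisomal thioesterase gene, 1.14 ± 0.400 FPKM in PHx48 and 0.194 ± 0.166 FPKM in sham (2.60 ± 0.53). Cyp2c40 (-1.90 ± 0.40) and Cyp2c69 (-1.90 ± 0.49) were called lower. Reads of Cyp2a and Cyp2c genes can be shared with their close relatives. Cyp2a4 and Acot3 averaged under 1 FPKM in sham and passed the FPKM filter through resected livers, so the set tested can favour rises.

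Enzymes of clearance differed by gene. Of 37 cytochrome P450 genes of families 1 to 3, 14 were called lower and 7 higher (median -0.42). The share called lower was above the 17% over all genes, and the share called higher was near the 19.5% over all genes. Cyp2e1, the ethanol- and drug-oxidising enzyme of pericentral hepatocytes (ENSMUSG00000025479, GRCm38 chr7:140763739-140774987), was at 543 to 1290 FPKM (median 797) in PHx48, against 2172, 2345, 2817, 1980 and 2385 FPKM in sham. Every PHx48 library was below every sham library (log2 fold change -1.43 ± 0.27, edgeR adjusted p = 0.00016). Cyp2d10 and Cyp2d9 fell by similar factors (-1.36 ± 0.13 and -1.44 ± 0.18), as did Cyp2f2, a periportal enzyme (-1.44 ± 0.20; it overlaps Gm15883). Por, the reductase that supplies electrons to all of them, rose (0.90 ± 0.19). Among 41 conjugating enzymes 15 were called lower and 12 higher. The mu-class glutathione transferases rose: Gstm3 was at 527 to 2516 FPKM (median 813) in PHx48, against 91.3, 108, 58.4, 59.2 and 38.8 FPKM in sham, with no overlap and with PHx48 4 highest (3.93 ± 0.51). Gstm2 and Gstm1 rose by 2.09 ± 0.23 and 1.09 ± 0.24; the copies are similar enough to share reads. The sulfotransferase gene Sult2a8 (-2.78 ± 0.44) and the glucuronosyltransferase gene Ugt2b38 (-2.29 ± 0.29) fell.

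Genes of bile acid synthesis and transport were called lower in 11 of 26 cases and higher in 2 (median -0.35). Cyp8b1 was at 2.08 to 39.7 FPKM (median 15.4) in PHx48, against 128, 161, 139, 156 and 156 FPKM in sham; the sham libraries were close to each other, the PHx48 libraries spread widely, and the groups did not overlap (edgeR adjusted p = 0.00121). Cyp7a1, the rate-limiting enzyme of the classical pathway, gave no call: it was at 9.23 to 47.96 FPKM (median 24.2) in PHx48 and 9.46, 12.3, 2.86, 26.5 and 7.31 FPKM in sham, with overlap (1.21 ± 0.76, edgeR adjusted p = 0.223). Cyp27a1, which starts the alternative pathway (-1.19 ± 0.16), Slc27a5, which activates bile acids for conjugation (-1.19 ± 0.15), and Slc10a1, which takes them up from blood (-1.48 ± 0.22), fell with every PHx48 library below every sham library. Cyp39a1, an oxysterol hydroxylase gene, rose (1.16 ± 0.24).

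Genes of amino acid catabolism differed by step. Of 42 genes of the urea cycle and amino acid breakdown 14 were called lower and 4 higher (median -0.26, but 0.05 with TPM). Cdo1, which oxidises cysteine, was at 205 to 456 FPKM (median 289) in PHx48, against 859.9, 977, 969, 1098 and 1196 FPKM in sham, with no overlap (-1.71 ± 0.21, edgeR adjusted p = 5.57e-07). Csad, the next enzyme towards taurine, averaged 11.8 ± 5.53 FPKM in PHx48 and 72.9 ± 9.11 FPKM in sham (-2.62 ± 0.35; it overlaps Zfp740), and Tdo2, which opens tryptophan, 111 ± 30.9 FPKM in PHx48 and 353 ± 86.1 FPKM in sham (-1.66 ± 0.20). In the urea cycle, Nags, which makes the activator of the cycle, rose (0.62 ± 0.14), and Ass1 and Cps1 gave no call (edgeR adjusted p = 0.471 and 0.112), with Ass1 at 1251 ± 301 FPKM in PHx48 and 1115 ± 175 FPKM in sham and Cps1 at 698 ± 171 FPKM in PHx48 and 542 ± 94.6 FPKM in sham.

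Among secreted plasma proteins other than acute-phase ones, more genes were called lower than higher. Called lower were 22 of 42 complement and coagulation genes (2 higher, median -0.46), 15 of 27 plasma carriers and serpins (1 higher, median -0.51) and 10 of 23 apolipoproteins and lipoprotein lipases (2 higher, median -0.40, but 0.03 with TPM). By library totals the lower calls were 14, 14 and 8, and by TPM 9, 10 and 8. Serpina1e, an alpha-1 antitrypsin gene with close copies, was at 1568 to 4998 FPKM (median 3649) in PHx48, against 8301, 9153, 10097, 11791 and 11901 FPKM in sham, without overlap (-1.71 ± 0.40). Apoa2, a main protein of high-density lipoprotein, was at 4122 to 9430 FPKM (median 5443) in PHx48, against 9628, 13270, 12566, 15957 and 19057 FPKM in sham; the highest PHx48 library lay just under the lowest sham library (-1.20 ± 0.21, edgeR adjusted p = 8.89e-05). Falls with no overlap were also called for Lipc, hepatic lipase (-1.09 ± 0.13; it overlaps Gm25149), Apoh (-0.93 ± 0.14; it overlaps Prkca), Klkb1, plasma prekallikrein (-1.53 ± 0.22), Proc, protein C (-0.91 ± 0.14), the contact factor gene F12 (-0.52 ± 0.074) and complement C2 (-0.95 ± 0.15; it overlaps Zbtb12). Pros1, protein S, a cofactor of protein C, rose (0.45 ± 0.08).

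Alb itself was not called. It was at 18733 to 29624 FPKM (median 23003) in PHx48 and 15799, 19274, 20537, 39848 and 41610 FPKM in sham, so the sham libraries fell into 3 low and 2 high values that spanned the PHx48 range, and its log2 fold change of -0.19 ± 0.22 (edgeR adjusted p = 0.523) turned positive with library totals and TPM. Hnf4a, the factor that maintains hepatocyte identity, was at 90.2 to 128 FPKM (median 114) in PHx48 and 86.6, 119.9, 123, 131 and 187 FPKM in sham, with overlap (-0.21 ± 0.13, edgeR adjusted p = 0.212; it also changed sign under both scalings, and overlaps Hnf4aos). Of 26 hepatocyte transcription factors 7 were called lower and 1 higher (median -0.23, but 0.02 with 3 lower by library totals and 0.14 with 3 lower by TPM). Cebpa, which promotes differentiation and restrains division, averaged 131 ± 20.8 FPKM in PHx48 and 243 ± 67.98 FPKM in sham (-0.87 ± 0.18; it overlaps Gm45091), and Klf9, a thyroid hormone- and glucocorticoid-responsive factor, 13.9 ± 2.01 FPKM in PHx48 and 27.2 ± 5.93 FPKM in sham (-0.96 ± 0.18). Of 30 nuclear receptors 9 were called lower and 1 higher (median -0.17, but 0.04 with 5 lower and 0.23 with none lower under the 2 scalings), among them the drug sensor gene Nr1i3 (-0.75 ± 0.15; it overlaps Tomm40l), the thyroid hormone receptor genes Thra (-0.84 ± 0.19; it overlaps Nr1d1) and Thrb (-0.60 ± 0.12), and Ppara, the receptor for fatty acids (-0.87 ± 0.21); these 4 calls were lost with TPM.

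**Figure D3:**
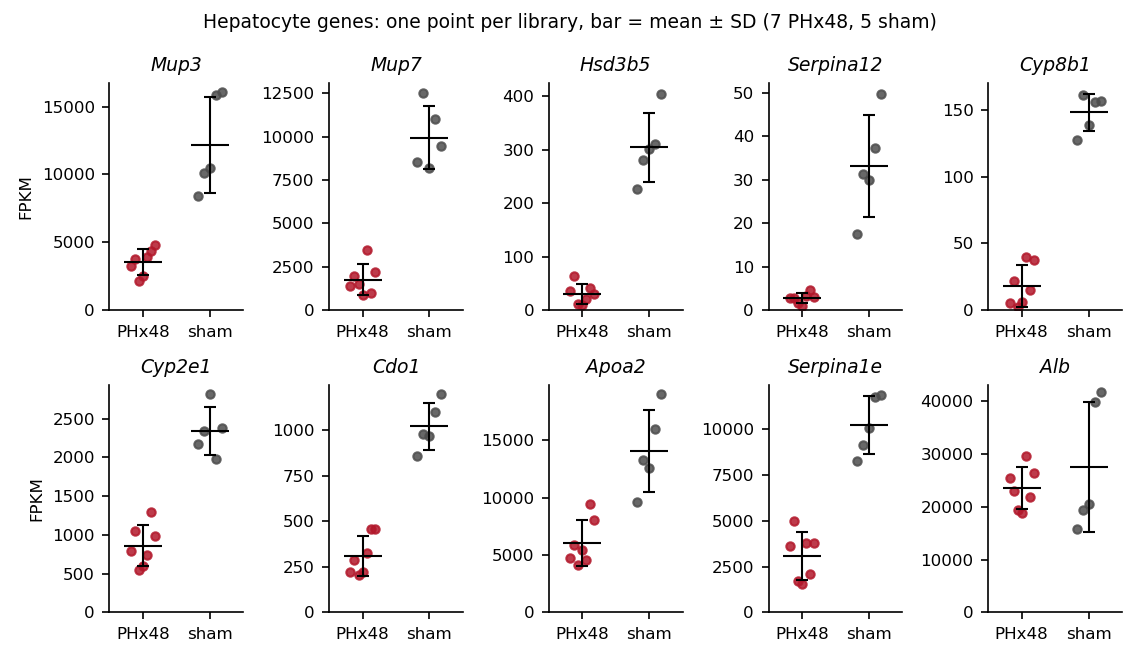
FPKM of 10 hepatocyte genes, 1 point per library, in the 7 PHx48 libraries (red, left) and the 5 sham libraries (grey, right); bars are mean ± SD. In 9 panels every PHx48 point lies below every sham point, and for Alb the groups overlap.

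Zonal genes did not move as blocks. Of 24 Wnt-dependent pericentral genes 2 were called higher and 2 lower, and Glul, glutamine synthetase of the last row of hepatocytes, was at 146 to 285 FPKM (median 201) in PHx48 and 283, 282, 309, 262 and 254 FPKM in sham with no call (edgeR adjusted p = 0.292). Of 22 periportal genes 3 were called higher and 7 lower.

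In energy metabolism, nuclear-encoded respiratory chain genes were called lower in 23 of 45 cases and higher in none. The falls were small (median -0.30), and their direction depends on the scaling: the median was -0.07 with 6 lower and 1 higher by library totals, and 0.06 with 9 higher and none lower by TPM. Sdhb, of complex II, averaged 74.4 ± 8.68 FPKM in PHx48 and 113 ± 22.1 FPKM in sham (-0.59 ± 0.11). Of 25 genes of fatty acid oxidation and ketone production 11 were called lower and 1 higher (median -0.22, but 0.01 with 5 lower and 0.14 with 4 lower under the 2 scalings). Acsl1, which activates long-chain fatty acids, fell (-1.18 ± 0.23). Cpt1a, the gate of mitochondrial import and a target of etomoxir, was at 37.9 to 53.4 FPKM (median 46.5) in PHx48, against 46.2, 54.4, 76.3, 53.3 and 90.9 FPKM in sham. The ranges overlapped, and its call (-0.45 ± 0.16, edgeR adjusted p = 0.0272) was lost with library totals, TPM, without sham 3 or without sham 5.

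In carbohydrate metabolism 7 of 17 gluconeogenesis and glycogen genes were called lower and none higher (median -0.53). These counts were 5 lower and 2 higher without the 4 libraries, and 2 were lower with TPM. Of 24 glycolysis and pentose phosphate genes 5 were called higher and 4 lower (median -0.01). Both shares were near the 19.5% and 17% over all genes. Gys2, liver glycogen synthase, fell by 1.01 ± 0.21 (SE) on the log2 scale. Of the sugar-breakdown genes that fell, Pklr, the liver pyruvate kinase, averaged 16.8 ± 3.69 FPKM in PHx48 and 60.2 ± 26.3 FPKM in sham (-1.81 ± 0.26), and Khk, fructokinase, 120.3 ± 27.6 FPKM in PHx48 and 290.4 ± 98.9 FPKM in sham (-1.25 ± 0.21). Among those that rose were Ldha, lactate dehydrogenase A (0.82 ± 0.13), the common glycolytic enzymes Pgam1 (0.42 ± 0.087) and Tpi1 (0.47 ± 0.11; it overlaps Spsb2), and Pgd of the pentose phosphate route (0.90 ± 0.21).

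Lipid synthesis was near sham by the list medians, but the PHx48 libraries differed. Of 27 genes of fatty acid and triglyceride synthesis 8 were called higher and 4 lower (median 0.02). Of 28 cholesterol genes 3 were called higher and 2 lower (median 0.21), or 1 and 2 without the 4 libraries and 12 and 1 by library totals. For the fatty acid and triglyceride genes, the median log2 ratio to the sham mean was -0.27 to -0.14 in PHx48 1 to 4. It was 0.11 to 0.50 in PHx48 5 to 7 and -0.36 to 0.39 in sham. For the cholesterol genes these ranges were -0.61 to -0.10, 0.16 to 0.79 and -0.38 to 0.33. Acly, which makes cytosolic acetyl-CoA, was at 55.4 to 288 FPKM (median 92.97) in PHx48, against 46.6, 42.8, 26.2, 50.98 and 59.1 FPKM in sham. PHx48 5 was far above the rest, and 6 of 7 PHx48 libraries exceeded every sham library (1.44 ± 0.29). Elovl3, an elongase of very long fatty acids, fell (-2.22 ± 0.39), as did Dgat2, which completes triglycerides (-0.88 ± 0.13).

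Part of the acute-phase genes, whose products the liver makes under interleukin signals, were above sham at 48 h. Of 32, 12 were called higher and 5 lower (median 0.50), or 8 and 6 without the 4 libraries. Saa2, serum amyloid A2, which cannot be fully told apart from Saa1 (ENSMUSG00000057465, GRCm38 chr7:46751790-46754313), was at 338 to 1456 FPKM (median 725) in PHx48, against 4.90, 6.66, 26.4, 11.6 and 7.27 FPKM in sham. Even the lowest PHx48 library was more than 10 times the highest sham library (6.24 ± 0.56, edgeR adjusted p = 8.19e-09). Lcn2, lipocalin 2, which withholds iron from bacteria, averaged 132 ± 64.5 FPKM in PHx48 and 2.16 ± 0.992 FPKM in sham (5.96 ± 0.40), Saa1 1104 ± 519 FPKM in PHx48 and 44.4 ± 33.7 FPKM in sham (4.65 ± 0.46) and Orm2 215 ± 127 FPKM in PHx48 and 12.1 ± 5.86 FPKM in sham (4.17 ± 0.46). The falls were of Serpina3k (-1.12 ± 0.17; it overlaps Serpina3m), the hepcidin-family gene Hamp2 (-2.86 ± 0.74), Crp, C-reactive protein (-0.81 ± 0.23, a call lost with TPM), Agt, angiotensinogen (-0.39 ± 0.12, a call lost under both scalings), and 1 more. Neutrophil markers were near absent, with a summed FPKM of 2.49 to 8.37 in PHx48 and 2.29 to 6.63 in sham over 12 genes.

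In the interferon and antigen presentation lists more genes were called lower than higher. None of 36 interferon-stimulated genes was called higher and 17 were called lower (median -0.55), or 8 by library totals and 7 by TPM. Irf7, the factor that amplifies the interferon response, averaged 5.38 ± 1.07 FPKM in PHx48 and 14.2 ± 4.46 FPKM in sham (-1.38 ± 0.18; it overlaps Phrf1), and Ifit1, an antiviral RNA binder, 1.53 ± 0.363 FPKM in PHx48 and 5.33 ± 2.03 FPKM in sham (-1.77 ± 0.36). Of 22 antigen presentation genes 11 were called lower and 2 higher, or 7 and 1 without the 4 libraries. Cd74, the invariant chain of MHC class II, was at 7.41 to 23.8 FPKM (median 12.6) in PHx48, against 57.4, 152, 32.9, 53.4 and 36.3 FPKM in sham. All PHx48 libraries were below all sham libraries, and sham 2, which had the highest B and T cell marker sums, was far above the other sham libraries; the part of those cells in the difference was not tested, and Cd74 was still called without the 4 libraries (-2.27 ± 0.33, edgeR adjusted p = 7.29e-06). The class I genes H2-K1 (-0.62 ± 0.094) and B2m (-0.74 ± 0.14) fell as well, and H2-Q6 rose (1.26 ± 0.22), although class I genes share sequence. Ccl9, a chemokine that draws myeloid cells (ENSMUSG00000019122, GRCm38 chr11:83572919-83578636), was at 103 to 143 FPKM (median 129) in PHx48, against 16.9, 21.4, 23.1, 30.8 and 23.5 FPKM in sham. The lowest PHx48 library was more than 3 times the highest sham library (2.43 ± 0.17, edgeR adjusted p = 9.42e-11).

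Markers of the other liver cells were counted next. Of 12 sinusoidal endothelial markers 8 were called lower and none higher (median -0.56), or 3 without the 4 libraries and 3 under either scaling, and their summed FPKM was 27.7 to 50.2 in PHx48, against 55.1 to 70.2 in sham. Mrc1, the mannose receptor, averaged 2.24 ± 0.5675 FPKM in PHx48 and 4.05 ± 0.416 FPKM in sham (-0.83 ± 0.16), and Fcgr2b, an Fc receptor of these cells, 3.36 ± 0.331 FPKM in PHx48 and 5.99 ± 0.705 FPKM in sham (-0.82 ± 0.19). Of 12 Kupffer cell markers 4 were called lower and 1 higher (6 and 1 without the 4 libraries, none lower under either scaling), with sums of 82.7 to 246.6 in PHx48 and 145.4 to 223.8 in sham. The marker that rose was Marco, a scavenger receptor of macrophages (17.4 ± 19.4 FPKM in PHx48 and 2.38 ± 0.957 FPKM in sham, 2.90 ± 0.49), with PHx48 4 far above the others. Stellate cell and fibroblast markers gave 1 higher and 1 lower call of 12. The summed FPKM of 10 adipocyte markers was 264.4 to 1032 in PHx48 and 1599 to 2001 in sham, with 2 of 9 tested called lower, or 5 without the 4 libraries. The 2 called, Car3 (278 ± 169 FPKM in PHx48 and 1245 ± 313 FPKM in sham) and Pck1 (277 ± 177 FPKM in PHx48 and 517 ± 207 FPKM in sham), are also hepatocyte genes and made up most of the sum in both groups; the call of Pck1 was lost under 13 alternatives, among them library totals, TPM and the fit without the 4 libraries.

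The matrix and cytoskeleton changed in single genes. Of 35 extracellular matrix genes 9 were called higher and 2 lower (median 0.52), or 15 and 2 by library totals. Timp1, an inhibitor of metalloproteinases (3.09 ± 0.76), Mmp14, a membrane metalloproteinase (1.09 ± 0.22), and Loxl2, a collagen cross-linker (1.19 ± 0.30), rose. Col27a1 was at 0.443 to 1.03 FPKM (median 0.779) in PHx48, against 6.82, 6.17, 5.66, 7.16 and 3.73 FPKM in sham. The lowest sham library was more than 3 times the highest PHx48 library (edgeR adjusted p = 2.72e-11). Krt8, a keratin of hepatocytes and bile duct cells (ENSMUSG00000049382, GRCm38 chr15:101996698-102004482), was at 459.96 to 1035 FPKM (median 688) in PHx48, against 151, 254, 145, 166 and 167 FPKM in sham, with no overlap (2.10 ± 0.34), and its partner Krt18 rose by 2.17 ± 0.27. Afp, alpha-fetoprotein, a product of fetal liver, stayed low in FPKM but without overlap (2.52 ± 0.814 FPKM in PHx48 and 0.873 ± 0.118 FPKM in sham, 1.55 ± 0.21). The Afp gene overlaps Gm43449. Among the 16 fetal and progenitor genes tested 4 were called higher and 4 lower (median -0.33), but 6 and 1 without the 4 libraries (median 0.46) and 5 and none by TPM. Epcam, a bile duct and progenitor marker, was called lower (-2.70 ± 0.76) through sham 2, and its sign changed without that library.

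Stress and metal genes differed by list. Of 20 NRF2 targets 8 were called higher and 1 lower (4 and 0 without the 4 libraries), with Nqo1, a quinone reductase, at 16.6 ± 7.46 FPKM in PHx48 and 3.44 ± 1.11 FPKM in sham (2.27 ± 0.39). Of 12 metallothionein and zinc transporter genes 2 were called higher and 1 lower (median 0.11), smaller shares than the 19.5% and 17% over all genes. Mt1, metallothionein 1, which binds zinc and copper, averaged 115 ± 66.6 FPKM in PHx48 and 14.4 ± 4.74 FPKM in sham (3.002 ± 0.57). Of 19 ATF4 stress targets 5 were called higher and 2 lower, with a median of 0.004, against 0.01 over all genes. The share called higher was above that over all genes, and the share called lower was below it. Among those higher, Gdf15, a stress hormone, and Atf3, a stress-induced factor, rose by 2.60 ± 0.43 and 3.32 ± 0.56. Of 22 autophagy and iron genes 10 were called lower and 3 higher (median -0.24, with 6 lower by library totals, and 0.04 with 5 lower by TPM). Gabarapl1, an autophagosome coat gene of the Atg8 family, was at 45.98 to 86.7 FPKM (median 64.6) in PHx48, against 180.04, 221, 206, 159 and 182 FPKM in sham, with no overlap (-1.54 ± 0.14, edgeR adjusted p = 8.72e-09; it overlaps Gm44243). Its relatives Map1lc3b (-0.74 ± 0.13; it overlaps Zcchc14) and Map1lc3a (-0.80 ± 0.17) and Ulk1, the kinase that starts autophagy (-0.87 ± 0.13), also fell, while Tfrc, the transferrin receptor, and Alas1, the first enzyme of haem synthesis, rose by 1.35 ± 0.26 and 1.26 ± 0.24.

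**Figure D4:**
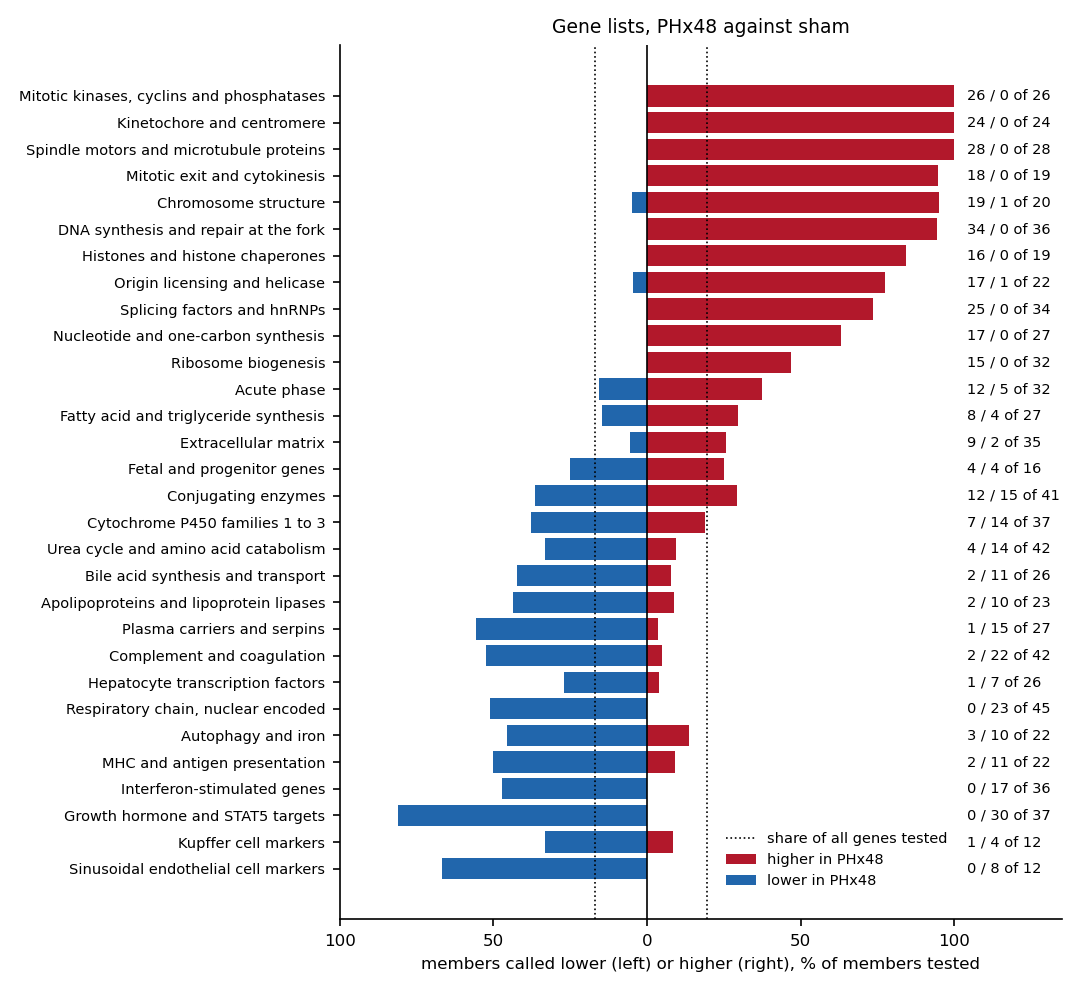
Share of the tested members of 30 gene lists called higher in PHx48 than in sham (red, to the right) or lower (blue, to the left), in percent of members tested, with the counts at the right as higher / lower of tested. Dotted lines mark the shares over all genes tested, 19.5% higher and 17% lower. The 5 mitotic lists reach between 94.7% and 100% on the right, and the growth hormone and STAT5 list reaches 81.1% on the left. Members that did not pass the FPKM filter are left out, and genes near absent from sham passed it through resected livers, which favours calls to the right.

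Among transcription factor genes more were called lower than higher with TMM scaling; the split was not computed under the other scalings. Of 651 factor genes tested, 92 were called higher and 129 lower, against 2318 and 1974 of the 11725 other genes. In the largest family, the C2H2 zinc fingers, 19 of 262 were called higher and 53 lower, whereas the E2F family had 6 of 9 higher and none lower and the HMG-box family 9 of 27 higher and 3 lower. By RNA class, 11 of 115 snoRNA genes were called higher, a smaller share than the 19.5% over all genes, and none lower, and long intergenic RNAs gave 30 higher and 56 lower calls of 245; snoRNAs lie inside host genes, and their reads can come from those.

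To place the 48 h values in time, PHx48 was also tested against PHx24. Of the 12376 genes, 766 (6.19%) were called higher in PHx48 than in PHx24 and 669 (5.41%) lower, 234 (1.89%) and 87 (0.703%) of these by at least 2-fold. PHx48 against sham and PHx48 against PHx24 share the PHx48 libraries, and PHx24 against sham uses the same sham libraries. The comparisons are therefore not independent, and a level high or low by chance in PHx48 moves both of the first 2. Of the 2410 genes higher in PHx48 than in sham, 472 were also higher than in PHx24, 80 were lower than in PHx24 and 1858 gave no call. Of the 2103 lower genes, 259 were also lower than in PHx24, 38 were higher and 1806 gave no call.

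Over all genes tested, 6.19% were called higher at 48 h than at 24 h, and each of the 5 mitotic lists had a larger share. Higher in PHx48 than in PHx24 were 18 of 26 mitotic kinase and cyclin genes, 21 of 28 spindle genes, 13 of 19 genes of mitotic exit, and 8 each of 24 kinetochore and 20 chromosome structure genes. Lower were 2 spindle genes. Of the 58 replication genes 1 was higher and none lower. Across the 116 mitotic genes, the median log2 ratio to the sham mean was -0.16 to 0.25 in sham, 0.83 to 3.07 in PHx24 and 3.10 to 4.06 in PHx48, so the PHx48 libraries lay above every PHx24 library. Across the 58 replication genes it was 0.94 to 2.42 in PHx24 and 1.14 to 1.996 in PHx48, which overlap. The largest rises over PHx24 by the naming rule were of Chrna4, a nicotinic receptor subunit gene (5.42 ± 0.51), Cdkn3 (3.83 ± 0.32), Ccnb2 (3.36 ± 0.41), Knstrn (3.20 ± 0.37), Serpinb8, an intracellular serpin (3.18 ± 0.30), and Pnpla3, a lipid droplet hydrolase (3.11 ± 0.61), all called by edgeR with adjusted p from 1.57e-08 to 0.00125. Ccnb2 averaged 49.5 ± 9.09 FPKM in PHx48 and 4.83 ± 3.38 FPKM in PHx24 (SD, n = 7 each), and Cdk1 16.5 ± 5.71 FPKM in PHx48 and 6.10 ± 3.30 FPKM in PHx24 (1.43 ± 0.44, edgeR adjusted p = 0.0345).

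**Figure D5:**
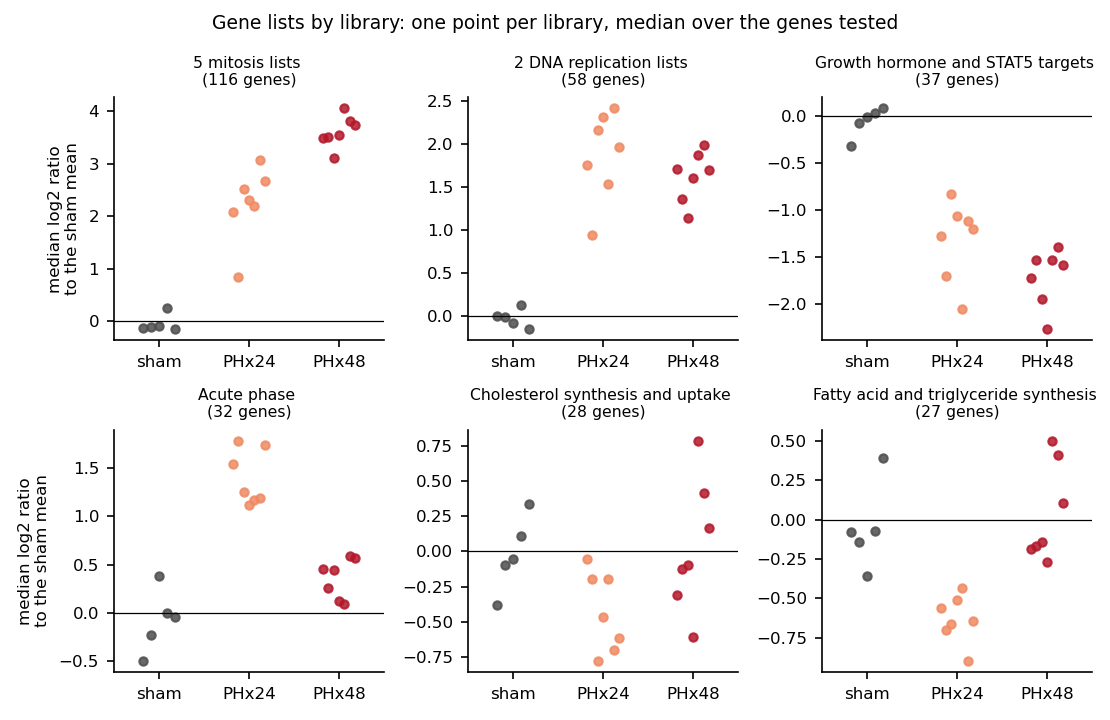
Median over the genes of a list of the log2 ratio of a library's FPKM to the sham mean (vertical axis), 1 point per library, for sham (grey), PHx24 (orange) and PHx48 (red) in time order, in 6 panels. The mitotic genes are highest in PHx48, and the replication genes and the cholesterol genes overlap between PHx24 and PHx48. The acute-phase genes are highest in PHx24, and the fatty acid and triglyceride genes are lowest in PHx24.

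Acute-phase genes were lower at 48 h than at 24 h: 19 of 32 were called lower in PHx48 than in PHx24 and none higher, and the median log2 ratio was 0.09 to 0.59 in PHx48 and 1.12 to 1.78 in PHx24. Among genes called in PHx48 against both sham and PHx24, at a mean of at least 5 FPKM in the highest group and with no overlap between the times, the 6 largest falls from PHx24 were of Lcn2 (-2.38 ± 0.29), Saa2 (-2.09 ± 0.40), Saa1 (-1.68 ± 0.35), Apcs, serum amyloid P (-1.62 ± 0.24), Serpina3n (-1.62 ± 0.22) and Ung, the uracil-DNA glycosylase (-1.18 ± 0.21), at edgeR adjusted p up to 0.00206. Lcn2 averaged 132 ± 64.5 FPKM in PHx48 and 690.4 ± 154 FPKM in PHx24. Lipid synthesis went the other way: 12 of 27 fatty acid and triglyceride genes and 9 of 28 cholesterol genes were called higher in PHx48 than in PHx24, and none lower. The median log2 ratio of the fatty acid and triglyceride genes was -0.27 to 0.50 in PHx48 and -0.90 to -0.44 in PHx24. For the cholesterol genes it was -0.61 to 0.79 in PHx48 and -0.78 to -0.05 in PHx24, which overlap. Acly averaged 121 ± 80.1 FPKM in PHx48 and 29.9 ± 4.82 FPKM in PHx24 (2.01 ± 0.26), and the desaturase genes Fads1 and Fads2 differed by 0.85 ± 0.10 and 1.13 ± 0.12 (Fads1 overlaps Mir6993). Ccl9 was also higher in PHx48 than in PHx24 (123 ± 15.2 FPKM in PHx48 and 26.04 ± 5.96 FPKM in PHx24, 2.24 ± 0.14, edgeR adjusted p = 2.15e-10).

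Against sham, 2366 genes (19.1%) were called higher in PHx24 and 1960 (15.8%) lower. Genes called on opposite sides of sham at the 2 times were few. Of the genes higher in PHx48 than in sham, 16 were lower in PHx24 than in sham, and of those lower in PHx48, 5 were higher in PHx24. By the naming rule the 6 leading ones were Chrna4, C330021F23Rik, Fmn1, Gm37736, B630019A10Rik and Gm2a. Chrna4 was at 0.977, 1.87, 0.739, 1.14 and 1.23 FPKM in sham, 0.131 to 0.495 FPKM (median 0.343) in PHx24 and 2.65 to 40.8 FPKM (median 8.18) in PHx48; the groups did not overlap, and PHx48 libraries differed by more than 10-fold. Gm2a, which encodes the GM2 activator protein of lysosomes, was at 21.7, 28.4, 30.6, 38.1 and 37.8 FPKM in sham, 13.1 to 17.8 FPKM (median 16.4) in PHx24 and 43.7 to 58.7 FPKM (median 52.7) in PHx48, with small spread and no overlap (PHx48 over PHx24 1.72 ± 0.13, edgeR adjusted p = 2.69e-09). Fmn1, formin 1, an actin nucleator, reached 2.13 FPKM in PHx48 5 and at most 1.10 FPKM in the other PHx48 libraries, and B630019A10Rik and Gm37736 lost their calls against sham without the 4 libraries.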

How the data were processed

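Per the labels' protocols, polyadenylated RNA of mouse liver was made into libraries with a kit that does not mark strand. Tools given by the submitters' processing notes are HISAT2 2.0.5, fastp, DESeq2 1.20.0, featureCounts 1.5.0-p3 and CASAVA 1.8, and the builds are GRCm38 and mm10. The authors deposited whole-number read counts per gene. They also deposited FPKM, which on testing equals count over gene length and over a library size proportional to median-of-ratios size factors.

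Here, 12376 of 54532 genes with at least 1 FPKM in at least 4 libraries were tested with edgeR 4.0.16 (quasi-likelihood, TMM; R 4.3.3) in 1 fit of all 27 libraries and 5 groups, with Benjamini-Hochberg adjustment over all genes and calls at an adjusted p under 0.05. The script was tested on simulated counts with 200 changed genes. Fold changes are log2 ± SE; levels are FPKM ± SD. Alternatives were DESeq2 1.42.0, limma 3.58.1 on log2(FPKM or TPM + 1) or log2(FPKM + 0.1), library totals, no filter (at least 10 counts in all), the compared groups alone, a replicate block, and left-out libraries.

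Named genes were the 12 largest called changes in each direction with every library beyond the other group and a mean of at least 5 FPKM, the 10 largest FPKM differences of called genes in each direction, up to 4 called genes and the 2 highest per list, leading genes against PHx24 and a fixed set. From lists, those that the text describes are given. Some genes that the rule names are not reported here. The comparison, members, lists and rules were chosen with earlier results of these data known. Coordinates are those of the deposited table, on GRCm38.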

Additional observations from a re-analysis of the deposited data

Results flagged for a closer look

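A value was looked at again where the highest or lowest library of a group lay apart from the others by Dixon's gap rule. Chance marks about 1 group in 20, and 39 of 414 sets of values of named genes and 10 of 48 other sets were marked. Of the 39, 11 were in sham 4, more than in any other library.

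In sham 4 the highest values were of cell cycle genes: Cdc20 at 4.25 FPKM, Cdca3 at 1.97, Ccnb2 at 1.66, Cdk1 at 1.08, Ccna2 at 0.982, Ckap2 at 0.624, Knstrn at 0.553, Ccnb1 at 0.549, Hmmr at 0.511 and Cenpe at 0.170 FPKM. All of these stayed below the lowest PHx48 library. The lowest sham value of Map1lc3b, 12.4 FPKM, was also in sham 4.

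The sums that stood apart were of markers of other tissues and of cells other than hepatocytes. In PHx48 3 they were skeletal muscle (640.4 FPKM), exocrine pancreas (169.3) and neutrophil markers (8.37). In sham 1 they were skeletal muscle (5441) and stellate cell and fibroblast markers (208.2). In sham 2 they were exocrine pancreas (1064), gut epithelium (368.5), B cell (41.3) and T and NK cell markers (25.4), and in sham 3 neutrophil markers (6.63). The named genes apart in sham 2 were Cd74 (152.3 FPKM), Krt8 (254.4), Epcam (36.6) and C330021F23Rik (2.21). Those in sham 1 were Map1lc3a (58.7), Pnpla3 (5.65), Loxl2 (1.26) and Timp1 (1.06) as highest values and H2-K1 (527.5) as a lowest value.

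Among the other PHx48 libraries, PHx48 4 was highest for the glutathione transferase genes Gstm1 (2901 FPKM), Gstm3 (2516) and Gstm2 (280.7) and for Marco (60.5). PHx48 5 was highest for Cps1 (1038), Acly (287.7), Arhgap11a (13.2), Foxm1 (7.99) and Fmn1 (2.13), PHx48 2 for Cebpa (175.5) and Serpina4-ps1 (132.0), and PHx48 7 for Cdkn1a (35.7). In sham 3 the highest values were of Saa1 (104.2), Vars (9.20), Marco (4.03) and Ccne1 (0.852), and in sham 5 of Herpud1 (237.3), Acsl1 (144.9) and Ppara (28.7).

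The 48 h and 24 h effects of resection differed for 766 genes upwards and 669 downwards by the test of PHx48 against PHx24. Among named genes the log2 differences were 5.42 for Chrna4, 3.83 for Cdkn3, 3.36 for Ccnb2, 3.20 for Knstrn, 3.18 for Serpinb8, 3.11 for Pnpla3, 2.24 for Ccl9, 2.01 for Acly, 1.72 for Gm2a, 1.43 for Cdk1, 1.13 for Fads2 and 0.85 for Fads1. They were -2.38 for Lcn2, -2.09 for Saa2, -1.68 for Saa1, -1.62 for Apcs, -1.62 for Serpina3n and -1.18 for Ung.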

How the results depend on the processing

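The choice of scaling moved the counts most. For PHx48 against sham, 4278 genes were called higher and 986 lower (300 by at least 2-fold) with library totals, and 5687 higher and 655 lower (190 by at least 2-fold) with limma on log2(TPM + 1). For PHx48 against PHx24 the counts were 1453 and 320, and 1691 and 264 (44 lower by at least 2-fold), under the same settings. Without the FPKM filter 1066 genes were higher and 979 lower than in sham by at least 2-fold. The setting limma on log2(FPKM + 1) shrinks the folds of low genes. It gave 462 higher and 291 lower by at least 2-fold against sham and 140 and 50 against PHx24. DESeq2, limma on log2(FPKM + 0.1), a fit of the compared groups alone and a fit without the 4 libraries kept every such count within 1.5 times. Leaving out each library in turn gave 2098 to 2399 higher and 1902 to 2237 lower genes against sham (730 to 798 and 453 to 572 by at least 2-fold), and 615 to 781 higher and 519 to 662 lower against PHx24 (202 to 262 and 76 to 97).

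Of 199 named genes called against sham, 178 kept call and direction under every alternative that gave them a value; 7 were lost with library totals, 14 with TPM, 10 without the 4 libraries and none with DESeq2, which gave no adjusted p for Foxm1 and Epcam. Signs turned for genes with no call or with 1 library deciding: Alb (0.065 with library totals, 0.25 with TPM), Hnf4a (0.034 and 0.17), Igfbp1 (0.33 and 0.37 with limma on FPKM, 0.71 with TPM, 1.75 without the 4 libraries, -0.74 to 0.21 with each library left out) and Epcam (0.30 without the 4 libraries, -3.03 to 0.77 with each library left out, the positive value being without sham 2). The causes were not tested.

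Whether equal replicate numbers pair the libraries is not in the labels. Deviations from the group means of same-numbered libraries correlated at -0.23 to 0.17 for PHx48 and sham and -0.20 to 0.20 for PHx48 and PHx24. These values were not set against those of differently numbered libraries, so they cannot decide whether libraries are paired. With the number as a replicate block, 2509 genes were called higher and 2039 lower against sham (824 and 477 by at least 2-fold), and 793 and 652 against PHx24; 4 named genes lost their call. Depths of 14903757 to 17192608 counts limit genes under about 1 FPKM. Genes that did not reach 1 FPKM in at least 4 of the 27 libraries were not tested. Some genes tested and called still averaged under 1 FPKM in 1 or both of the groups compared.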
